A study of Mus musculus with 6 samples.

Results

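Transcripts of 8 mouse genes for RNA sensors and their effectors were followed in mouse embryonic fibroblasts (MEFs) with and without YME1L, a protease in the inner membrane of mitochondria that runs on ATP. The genes were chosen by name: Ddx58, Ifih1, Dhx58, Mavs, Eif2ak2, Adar, Zbp1 and Tlr3. Each name matched a single locus of the count table, so that the members were 8 of 51499 loci, and all 8 were among the 13867 loci with enough counts to be tested. SV40-immortalized MEFs with floxed Yme1l were transduced with Cre recombinase, and clones were sorted by genotype into control cells with intact floxed alleles (Yme1l fl/fl), called WT, and Yme1l-/- cells. Both genotypes thus come from Cre-treated cells, and both were grown in DMEM. RNA was taken from 3 cultures of each genotype and poly(A)-selected. Because the cells were expanded as individual clones, an effect of the genotype and a difference between clones cannot be told apart. The p-values measure the spread between cultures.

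Cells detect viral or misplaced cellular RNA with several kinds of receptors. In the cytosol, the RIG-I-like receptors bind double-stranded RNA. Among them, RIG-I and MDA5 engage MAVS, an adaptor on the outer mitochondrial membrane, which signals to the transcription factors that switch on interferon genes. The kinase PKR halts translation when it binds double-stranded RNA, the deaminase ADAR1 converts adenosine to inosine in such RNA and so makes it less visible to the receptors, ZBP1 recognises Z-form nucleic acids and can trigger cell death, and TLR3 binds double-stranded RNA in endosomes rather than in the cytosol. Most of these genes are themselves induced by interferon in fibroblasts and many other cells. The study asked whether loss of YME1L raises interferon-stimulated genes and tested by knockdown whether RNA sensing takes part. The paper reports that knockdown of MDA5, RIG-I or MAVS did not lower these genes in Yme1l-/- cells. Depletion of the DNA sensor cGAS or of its adaptor STING did lower them. The RNA sequencing bears on how the sensing machinery itself was expressed.

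The libraries held between 33180867 and 49351107 counted fragments. The WT libraries and Yme1l-/- replicate 1 were close in depth (33180867 to 34624075) and Yme1l-/- replicates 2 and 3 were deeper (49351107 and 49157459). Counts of 3 fragments corresponded to 0.0589 to 0.0919 CPM (counts per 1000000 fragments of the library, scaled for composition), which is far below the level of every member in Yme1l-/- cells. Yme1l1 itself fell in all Yme1l-/- libraries and 20.7% of its WT level was left. The genotypes differed widely: 33.6% of the loci tested were called higher in Yme1l-/- cells and 34.1% lower, by edgeR's quasi-likelihood test with a Benjamini-Hochberg adjusted p under 0.05 over all loci tested. A call alone therefore says little here, and the sizes of the changes are given against the whole table.

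All 8 members were higher in Yme1l-/- cells, 6 of them by at least 2-fold, and none fell. Among all loci tested, 9.1% were called higher by at least 2-fold. In each of the 8 genes every Yme1l-/- library lay above every WT library, which was so for 35.9% of the loci tested. The median log2 fold change of the members was 1.76 and that of all loci tested was -0.00. The increases were unequal and ran from 1.48-fold (Mavs) to 9.82-fold (Dhx58).

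**Figure D1:**
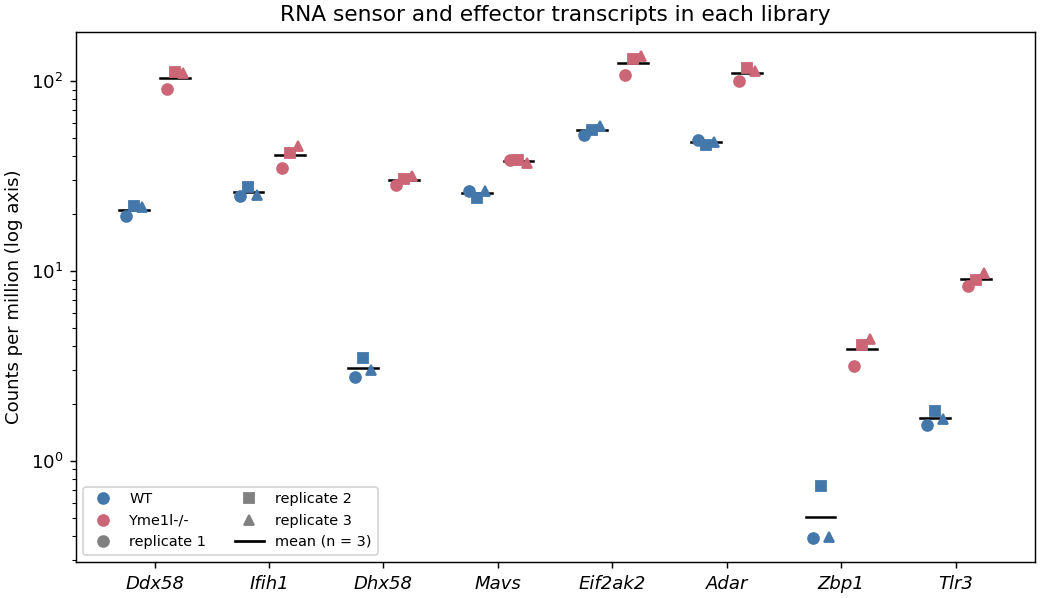
CPM (log axis) of the 8 transcripts in each of the 6 libraries, with 1 symbol per culture number and a line at the mean of each genotype (n = 3). For every gene the Yme1l-/- symbols lie above the WT symbols, by the least for Mavs (25.6 against 37.9 CPM on average) and by the most for Dhx58 (3.08 against 30.2 CPM).

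Short stretches of the promoters are shown first, because 2 motifs of interferon signalling can be read in them. RefSeq promoters (build GRCm38.p6, 250 bases before to 50 bases after the start) were given for 6 of the 8 genes: Ddx58, Ifih1, Mavs, Eif2ak2, Adar (3 alternative starts) and Tlr3. They were searched on both strands for GAAANNGAA, the core of the element bound by interferon regulatory factors (IRFs), and for TTCNNNGAA, the site of STAT dimers. Both motifs were read from their letters alone. The IRF core occurred in 4 of the 6 genes with a promoter, against 9.8% of all 27025 genes with a promoter, and the STAT site in Eif2ak2 and Adar, against 9.6% of all genes. The matches are printed 5′ to 3′ on the strand of the gene, with the motif in capitals. The matches in Ddx58 and the upstream match in Ifih1 are the IRF core on the opposite strand.
Ddx58, chr4:40239804-40239832 (minus strand), IRF core from base 4 of the transcript: ctgaggcagtTTCGATTTCctatggccag
Ifih1, chr2:62646349-62646377 (minus strand), IRF core from 112 bases before the start: agaattcgcgTTCCCTTTCctgtttctca
Ifih1, chr2:62646206-62646233 (minus strand), IRF core from base 33 of the transcript: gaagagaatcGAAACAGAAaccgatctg
Eif2ak2, chr17:78882536-78882564 (minus strand), 2 overlapping IRF cores from bases 19 and 25 of the transcript: agtccgccggGAAAACGAAACAGAAgaga
Eif2ak2, chr17:78882732-78882760 (minus strand), STAT site from 178 bases before the start: ctgcagagctTTCCCAGAAtggaagccag
Adar, last start, chr3:89730730-89730758 (plus strand), STAT site from base 23 and most of an IRF core from base 34 of the transcript: gggaagccttTTCAAGGAAacGAAAGTGA
Adar, last start, chr3:89730468-89730487 (plus strand), IRF core from 249 bases before the start: gGAAAAGGAActtcctcaca
In Ddx58, Ifih1, Eif2ak2 and Adar an IRF core thus lay within the first 50 bases of the transcript. Adar had 3 windows in which a motif could occur and the other genes 1 each. In Adar it lay at the last of the 3 starts, and neither motif was found at the other starts. Neither motif was found in the windows of Mavs and Tlr3, which says only that these letters are not in those 300 bases. The genes with a match rose by 4.95-fold (Ddx58), 1.57-fold (Ifih1), 2.26-fold (Eif2ak2) and 2.32-fold (Adar), and those without one by 1.48-fold (Mavs) and 5.38-fold (Tlr3), so the size of the increase did not separate the genes with a match from those without.

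The RIG-I-like receptors all rose but by very different amounts. Ddx58 (chr4:40203773-40239828, minus strand) encodes RIG-I, which binds short double-stranded RNA with a triphosphate end. It was counted at 644, 716 and 709 fragments in the WT libraries (replicates 1 to 3) and at 3190, 5589 and 5592 in the Yme1l-/- libraries. Mean levels were 21.01 ± 1.35 CPM in WT and 103.9 ± 11.1 CPM in Yme1l-/- cells (SD, n = 3 per genotype). The log2 fold change was 2.31 ± 0.08 (SE; edgeR adjusted p = 2.1e-09). The lowest Yme1l-/- library (91.2 CPM) was far above the highest WT library (21.9 CPM). The log2 fold change ranked 412 from the top, within the highest 2.97% of the loci tested.

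Dhx58 (chr11:100694884-100704271, minus strand) encodes LGP2, a receptor without a signalling domain that modulates the other members of its family. It showed the largest increase of the 8 genes. Counts were 91, 114 and 98 in WT libraries and 994, 1539 and 1618 in Yme1l-/- libraries. In CPM it was 3.08 ± 0.372 in WT and 30.2 ± 1.70 in Yme1l-/- cells (SD, n = 3). The log2 fold change of 3.30 ± 0.10 (SE; edgeR adjusted p = 2.1e-10) ranked 199 (1.44%). The antisense gene Dhx58os in the same span was counted at no more than 12 fragments in any library. The libraries were made with a stranded kit, and whether the counting used the strand is not given in the sources used here.

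Ifih1 (chr2:62595798-62646255, minus strand) encodes MDA5, which binds long double-stranded RNA. It rose by far less than the other receptors. Counts were 822, 908 and 822 in WT libraries and 1218, 2114 and 2305 in Yme1l-/- libraries, or 25.9 ± 1.59 and 40.7 ± 5.33 CPM (SD, n = 3). The log2 fold change was 0.65 ± 0.09 (SE; edgeR adjusted p = 8.3e-05) and ranked 2221 (16%). The WT libraries reached 27.7 CPM and the lowest Yme1l-/- library was at 34.8 CPM, so the groups did not overlap but stood close together.

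Mavs (chr2:131234063-131248025, plus strand), the adaptor to which RIG-I and MDA5 signal, had the smallest increase. Counts were 874, 788 and 855 in WT libraries and 1344, 1935 and 1874 in Yme1l-/- libraries. On average it was at 25.6 ± 1.29 CPM in WT and 37.9 ± 0.929 CPM in Yme1l-/- cells (SD, n = 3). Its log2 fold change was 0.57 ± 0.06 (SE; edgeR adjusted p = 4.3e-06). It was also the most even member among the Yme1l-/- cultures, at 38.4, 38.4 and 36.8 CPM.

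The balance between receptor and adaptor transcripts was taken as the ratio of fragments within each library, which does not depend on how libraries are scaled. Ddx58 had 0.737, 0.909 and 0.829 fragments per Mavs fragment in WT libraries and 2.37, 2.89 and 2.98 in Yme1l-/- libraries, a log2 difference of 1.73 (two-sided exact permutation test, p = 0.1, n = 3 per genotype). Dhx58 had 0.105, 0.145 and 0.115 in WT libraries and 0.74, 0.795 and 0.863 in Yme1l-/- libraries, a log2 difference of 2.73 (exact permutation test, p = 0.1). Both ratios were separated between the genotypes without overlap, and 0.1 is the smallest p that 3 against 3 samples allow. The Ifih1 ratio overlapped, with 0.941, 1.15 and 0.961 in WT libraries and 0.906, 1.09 and 1.23 in Yme1l-/- libraries. Its log2 difference of 0.08 was smaller than the SD within either genotype (0.16 in WT and 0.22 in Yme1l-/- cells; exact permutation test, p = 0.7) and turned to -0.03 without Yme1l-/- replicate 3. Over the 3 ratios the smallest p allowed does not pass 0.05, with or without adjustment.

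**Figure D2:**
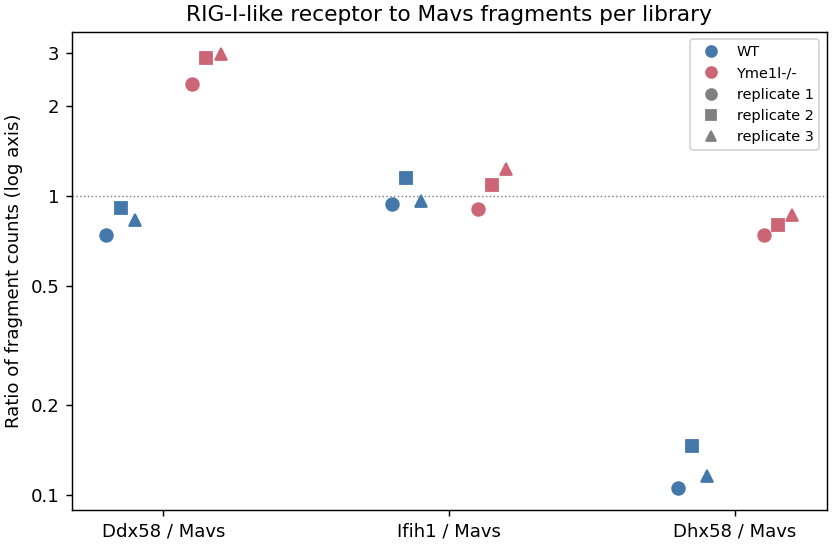
Fragments of Ddx58, Ifih1 and Dhx58 per Mavs fragment in each library (log axis, 1 symbol per culture; the dotted line marks equal counts, not corrected for transcript length). The ratios of Ddx58 and Dhx58 are higher in all Yme1l-/- libraries, whereas those of Ifih1 (0.941 to 1.15 in WT, 0.906 to 1.23 in Yme1l-/-) overlap.

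The effector genes Eif2ak2 and Adar rose by similar amounts. Eif2ak2 (chr17:78852564-78882573, minus strand) encodes PKR, which phosphorylates the translation factor eIF2α. Its counts were 1717, 1800 and 1884 in WT libraries and 3739, 6590 and 6861 in Yme1l-/- libraries, or 54.9 ± 2.92 and 124.1 ± 15.05 CPM (SD, n = 3). This is a log2 fold change of 1.18 ± 0.08 (SE; edgeR adjusted p = 8.4e-07). Adar (chr3:89715022-89753446, plus strand), whose interferon-inducible isoform edits double-stranded RNA in the cytosol, was counted at 1626, 1500 and 1557 in WT libraries and at 3515, 5904 and 5773 in Yme1l-/- libraries. The means were 47.5 ± 1.66 CPM in WT and 110.3 ± 8.73 CPM in Yme1l-/- cells (SD, n = 3). Its log2 fold change was 1.21 ± 0.06 (SE; edgeR adjusted p = 1.9e-08). The counts are per locus, so the isoforms of Adar were not separated. The kinase that responds to double-stranded RNA and the enzyme that edits it ranked close to each other (1008 and 967), and their increases differed by less than their standard errors.

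Zbp1 and Tlr3 were the lowest members in WT cells and rose strongly. Zbp1 (chr2:173206612-173218923, minus strand) had only 13, 24 and 13 fragments in WT libraries, against 111, 204 and 224 in Yme1l-/- libraries. The level was 0.508 ± 0.195 CPM in WT and 3.87 ± 0.631 CPM in Yme1l-/- cells (SD, n = 3). On the log2 scale the fold change was 2.93 ± 0.24 (SE; edgeR adjusted p = 1.0e-06). The standard error was the largest of the 8 genes. Every WT library was above the count of 3, so the gene was detected in both genotypes.

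Tlr3 (chr8:45395665-45411080, minus strand) was counted at 51, 60 and 54 fragments in WT libraries and at 292, 451 and 497 in Yme1l-/- libraries. WT cells averaged 1.68 ± 0.147 CPM and Yme1l-/- cells 9.01 ± 0.708 CPM (SD, n = 3). The genotypes differed by a log2 fold change of 2.43 ± 0.13 (SE; edgeR adjusted p = 2.1e-08). The genotypes were well apart for both genes: the lowest Yme1l-/- library was at 3.17 CPM for Zbp1 and 8.34 CPM for Tlr3, and the highest WT library at 0.733 and 1.83 CPM.

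To compare levels between genes, CPM were divided by the kilobases of exon of each gene. In WT cells Eif2ak2 led with 12.03 to 13.38 CPM per kilobase, followed by Mavs (7.78 to 8.53) and Adar (7.64 to 8.19), whose ranges overlapped. Ddx58 (5.02 to 5.65) and Ifih1 (4.54 to 5.07) came next and also overlapped. Dhx58 (1.14 to 1.44), Tlr3 (0.343 to 0.408) and Zbp1 (0.182 to 0.339) were lowest and did not overlap with their neighbours in the order. In Yme1l-/- cells Ddx58 (23.5 to 28.6 CPM per kilobase) reached the range of Eif2ak2 (24.8 to 31.2), and Adar (16.7 to 19.5) followed. Dhx58 (11.8 to 13.2) reached that of Mavs (11.9 to 12.4), whereas Ifih1 (6.36 to 8.27) lay below both. Tlr3 (1.86 to 2.17) and Zbp1 (1.47 to 2.03) remained lowest and overlapped. In the authors' own FPKM, a single value per genotype, Adar (10.2) preceded Mavs (9.06) in WT cells and Zbp1 (3.52) preceded Tlr3 (3.04) in Yme1l-/- cells, both being pairs that overlapped per kilobase.

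The summed level of the 8 transcripts was 39.97, 41.07 and 41.79 CPM per kilobase in WT libraries and 98.92, 115 and 116 in Yme1l-/- libraries. Its makeup shifted with the unequal increases. Ddx58 made up 12.6 to 13.8% of the sum in WT libraries and 23.8 to 24.9% in Yme1l-/- libraries, and Dhx58 went from 2.85 to 3.52% to 11.0 to 11.9%. Mavs went the other way, from 18.9 to 21.3% to 10.3 to 12.5%, as did Ifih1, from 11.0 to 12.4% to 6.43 to 7.13%, Eif2ak2, from 30.1 to 32.0% to 25.0 to 26.9%, and Adar, from 18.6 to 20.5% to 16.28 to 16.97%. These shares restate the fold changes of the single genes on a common scale and were not tested.

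**Figure D3:**
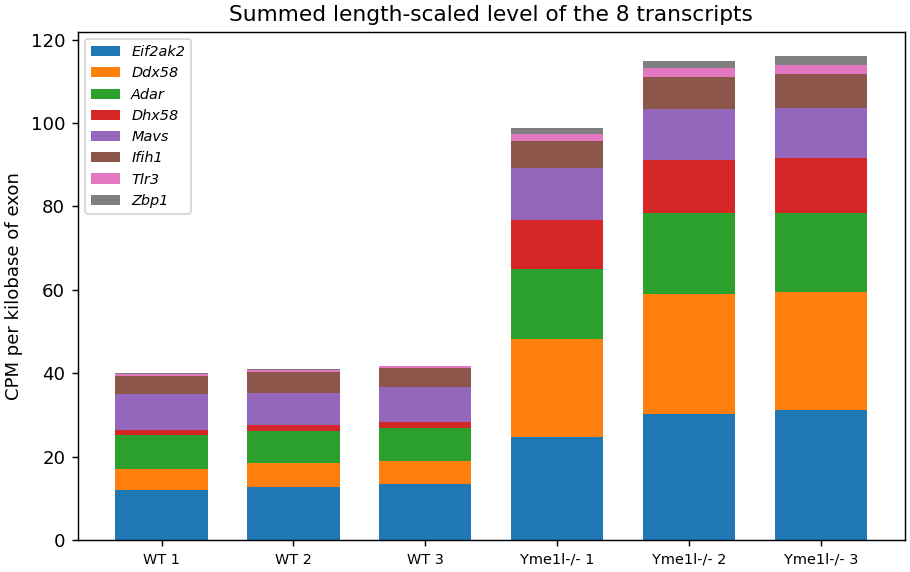
Summed CPM per kilobase of exon of the 8 transcripts in each library, stacked by gene from 0. The sum is 39.97 to 41.79 in WT libraries and 98.92 to 116 in Yme1l-/- libraries, where the segments of Ddx58 and Dhx58 take a larger share and those of Mavs, Ifih1, Eif2ak2 and Adar a smaller one.

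The Yme1l-/- cultures were not equal. Replicate 1 was the lowest of its genotype for 7 of the 8 members, which was so for 42.1% of all loci tested. It lay below the mean of replicates 2 and 3 by 24.9% for Zbp1, 20.1% for Ifih1, 19.5% for Eif2ak2, 17.4% for Ddx58, 12.8% for Adar, 10.8% for Tlr3 and 8.8% for Dhx58. For Mavs replicate 3 was the lowest. Replicate 1 was also the shallowest Yme1l-/- library, and the part of depth in this order was not tested. In WT cells replicate 1 was the lowest for 6 of the 8 members (34.9% of all loci tested). Without Yme1l-/- replicate 1, or without any other single library, all 8 genes stayed called higher.

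Because many loci of a chromosome can move together in cultured clones, each member was set beside its surroundings. The median log2 fold change of the loci tested on its chromosome was highest for Dhx58 on chromosome 11 (0.36). Neighbours were the 5 tested loci on each side in order of start position. Of the 10 neighbours of Dhx58, 8 were called higher. These neighbours reached at most 0.76 on the log2 scale, against 3.30 for Dhx58. The chromosome medians of the other members were 0.17 for Eif2ak2, -0.02 for Ifih1, Mavs and Zbp1, -0.10 for Ddx58, -0.12 for Adar and -0.32 for Tlr3. No neighbour of Ddx58, Dhx58, Zbp1 or Tlr3 was as high as the member. At least as high were 1 neighbour of Eif2ak2, 1 of Adar, 2 of Ifih1 and 3 of Mavs. With the median of each chromosome removed, all 8 genes were still called higher, the log2 fold change of Dhx58 being 2.94.

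**Figure D4:**
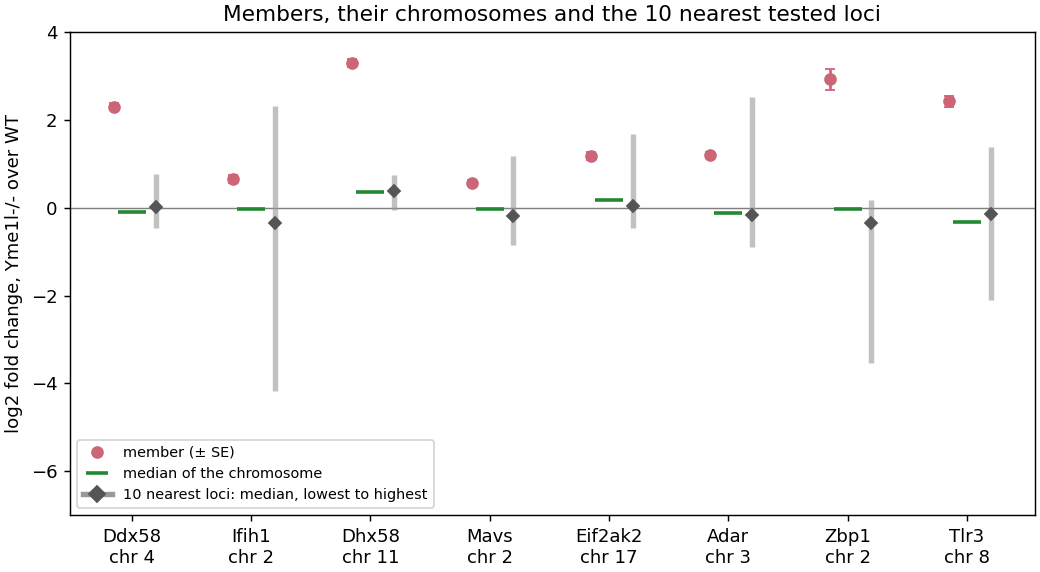
Log2 fold change (Yme1l-/- over WT) of each member with its SE, beside the median of its chromosome (green line) and 10 neighbouring tested loci. The neighbours are 5 on each side by start position (diamond for the median, grey bar from lowest to highest). Ddx58, Dhx58, Zbp1 and Tlr3 lie above all their neighbours, whereas Ifih1, Mavs, Eif2ak2 and Adar lie within the range of theirs.

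Among all 11413 named loci compared over the 6 libraries, the pattern most like that of each member was found by Euclidean distance between centred log2 CPM. The pattern of Zbp1 was closest to that of Nlrc5, a regulator of major histocompatibility complex class I genes, at a distance of 0.23. It had few companions, with 17 loci within a distance of 0.5. For Ddx58 the closest was Cplx2 (0.13), for Ifih1 Stat5a (0.08), for Dhx58 Rsph1 (0.18), for Mavs Hsf1 (0.05), for Eif2ak2 Pou6f1 (0.11), for Adar Prpf40b (0.05) and for Tlr3 Bicc1 (0.11). Rsph1 was at 0.0406 ± 0.0177 CPM in WT libraries (SD, n = 3) and had a log2 fold change of 4.25 ± 0.42, against 3.30 for Dhx58, so its distance was small through the prior count that shrinks low loci. The modest patterns were common, with 2636 loci within 0.5 of Mavs and 1647 within 0.5 of Ifih1. Among the members themselves, Eif2ak2 and Adar (0.20) and Ddx58 and Tlr3 (0.20) were closest, and Dhx58 and Mavs (3.34) were farthest apart. Only 6 libraries enter these distances, and the difference between the genotypes is part of them.

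Other genes of the RNA-sensing pathways were counted against the shares of all loci tested, 33.6% called higher and 34.1% lower. Of 20 partners of RIG-I-like receptor signalling, 8 were called higher, 8 lower and 4 were not called, with a median log2 fold change of -0.05, close to those shares. A single partner rose by at least 2-fold (9.1% of all loci tested): Irf7, the transcription factor of the interferon amplification loop, went from 5.35 ± 1.05 to 31.7 ± 1.60 CPM (log2 fold change 2.57 ± 0.11; edgeR adjusted p = 6.3e-09). The ubiquitin ligases that act on RIG-I went different ways. Rnf135 (Riplet) rose by 0.99 ± 0.11 and Trim25 by 0.85 ± 0.07 on the log2 scale (0.64 and 0.49 with the chromosome medians removed). Mex3c was called lower (-0.80 ± 0.05), and Rnf125 was at 0.42 ± 0.50 (edgeR adjusted p = 0.484).

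At the lower end, Nlrx1, a mitochondrial NOD-like receptor family member that can bind MAVS, was almost lost. It had 55, 73 and 56 fragments in WT libraries and 1, 3 and 0 in Yme1l-/- libraries (edgeR adjusted p = 6.1e-07). The summed counts gave a ratio of WT to Yme1l-/- of 63.7 (95% interval 24.5 to 236, counting error only). The size rests on these few fragments: the fitted log2 fold change of -5.85 was -6.95 without Yme1l-/- replicate 2 and -5.22 without replicate 3. Zcchc3, an RNA-binding cofactor of RIG-I and MDA5, fell from 11.5 ± 0.261 to 1.69 ± 0.257 CPM (log2 fold change -2.75 ± 0.12; edgeR adjusted p = 7.2e-09).

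Of 7 partners of PKR, 2 were called higher, 4 lower and 1 was not called (median -0.31). Tarbp2, an RNA-binding inhibitor of PKR, rose by 0.84 ± 0.06 on the log2 scale (0.25 with the chromosome medians removed) and Ppp1r15a, a phosphatase subunit that reverses the action of PKR on eIF2α, by 0.26 ± 0.05. Eif2s1, which encodes eIF2α itself, was at -0.46 ± 0.05 and the adaptor Nck1 at -0.40 ± 0.05, and neither was called once the chromosome medians were removed (-0.02 and -0.04). Prkra, the PKR activator PACT, was at -0.02 ± 0.07 (edgeR adjusted p = 0.802) and its sign depended on the scaling.

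Of 12 partners of ZBP1 and TLR3, 5 were called higher, 6 lower (4 under upper-quartile scaling) and 1 was not called (median -0.10), against 33.6% higher and 34.1% lower among all loci tested. Of the 12, 2 rose by at least 2-fold (9.1% of all loci tested), and both act next to members. Unc93b1, the chaperone that carries TLR3 and other nucleic acid-sensing Toll-like receptors to endosomes, had 37, 44 and 50 fragments in WT libraries and 873, 1166 and 1288 in Yme1l-/- libraries (log2 fold change 4.196 ± 0.11; edgeR adjusted p = 1.3e-10). Ripk3, the kinase that ZBP1 recruits, had 142, 195 and 154 in WT libraries and 998, 1451 and 1449 in Yme1l-/- libraries (log2 fold change 2.52 ± 0.10; edgeR adjusted p = 3.3e-09). For both genes the Yme1l-/- libraries were several times above all WT libraries.

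The downstream partners moved less. Ripk1 rose by 0.46 ± 0.05, Mlkl, the membrane-permeabilizing target of RIPK3, by 0.41 ± 0.06 and Ticam1, the TLR3 adaptor TRIF, by 0.28 ± 0.07 on the log2 scale (edgeR adjusted p = 0.0025 for Ticam1, which was not called with the chromosome medians removed). Cflar, an inhibitor of caspase-8, fell by 1.26 on the log2 scale (SE 0.07) and Map3k7, the kinase TAK1, by 0.29 (SE 0.04). With the chromosome medians removed Mlkl was at 0.73 and Map3k7 at -0.20.

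Other RNA helicases and RNA-binding sensors, 12 of 13 of them tested, were called higher in 3 cases, lower in 6 and not called in 3 (median -0.11). Upper-quartile scaling gave 4 higher and 4 lower, and removal of the chromosome medians 2 higher and 4 lower. Zc3hav1, the antiviral protein ZAP, rose by 0.60 ± 0.05 on the log2 scale and the helicase Ddx3x fell by 0.56 (SE 0.05). With the chromosome medians removed these were 0.26 and -0.35. Dhx33 (0.34 ± 0.04), Ddx21 (0.14 ± 0.05) and Ddx1 (-0.39 ± 0.04) were called, but the sign of each turned with the chromosome medians removed. The second editing enzyme, Adarb1, was at -0.08 ± 0.05 (edgeR adjusted p = 0.225), against 1.21 ± 0.06 for Adar. With the chromosome medians removed Adarb1 was called lower, at -0.37.

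Of 8 factors that limit double-stranded RNA, 4 were called higher and 4 lower (median -0.07). The list mixes RNA helicases, nucleases and their partners with Setdb1, a histone methyltransferase, and Trim28, a chromatin corepressor, both of which silence repeats. These were called lower, at -0.48 ± 0.05 and -0.34 ± 0.05. Pnpt1 (polynucleotide phosphorylase) rose by 0.69 ± 0.05, Skiv2l, a helicase of the cytosolic exosome, by 0.46 ± 0.04 and Supv3l1, the mitochondrial helicase that works with Pnpt1, by 0.35 ± 0.05 on the log2 scale. Dicer1 fell by 0.71 (SE 0.07) and the exonuclease Xrn1 by 0.64 (SE 0.11). With the chromosome medians removed Pnpt1 was at 0.33, Skiv2l at 0.29 and Dicer1 at -0.27, and Supv3l1 and Xrn1 were not called. None of the 6 interferon ligand genes could be tested: Ifnb1 had 1 fragment in WT replicate 2 and none elsewhere, and no interferon ligand exceeded 1 fragment in any library.

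**Figure D5:**
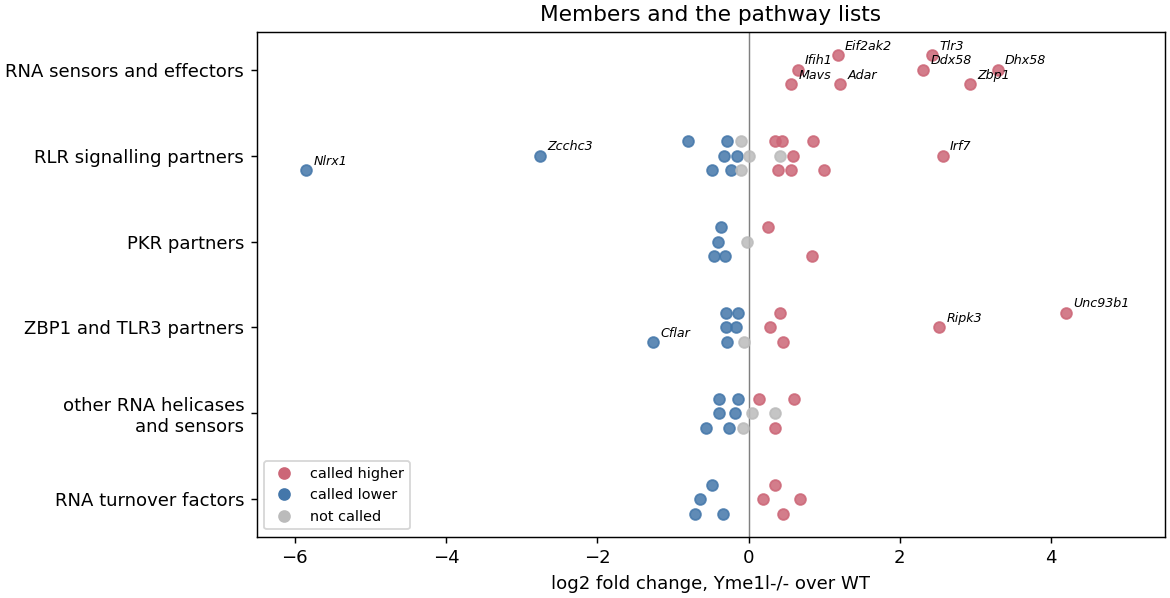
Log2 fold change (Yme1l-/- over WT) of the 8 members (top row) and of the tested genes of the 5 other lists, 1 point per gene, coloured by the call (edgeR adjusted p under 0.05). All members lie to the right of 0, whereas the medians of the other lists lie between -0.31 and -0.05. Irf7, Ripk3 and Unc93b1 stand out to the right, and Nlrx1, Zcchc3 and Cflar to the left.

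Markers of the labelled cell type and of others were read in the same libraries. The 8 fibroblast markers summed to 10840 to 11400 CPM in WT and 6646 to 7133 CPM in Yme1l-/- libraries. Thy1 had 4, 6 and 4 fragments in WT libraries and 0 in all Yme1l-/- libraries, and the other 7 were detected in both genotypes. Of these 7, 1 was called higher (Col1a1), 5 lower (Vim, Fn1, Col1a2, Pdgfrb and Col3a1) and 1 was not called. The shares among all loci tested were 33.6% higher and 34.1% lower. Col1a1 rose by 0.43 on the log2 scale and lies on chromosome 11, whose median was 0.36. The Col3a1 counts of WT cells were uneven, with 9860 fragments in replicate 2 and 2858 and 2974 in replicates 1 and 3. Some of the members are also expressed by leukocytes. The summed level of 8 macrophage and leukocyte markers was 2.02 to 2.12 CPM in WT and 4.49 to 5.18 CPM in Yme1l-/- libraries. Of these, Adgre1 and Tyrobp were at 0 in all libraries, Ptprc had at most 1 fragment, and 5 of 8 exceeded 3 counts in some library. Another 4 had few fragments and were not tested, but had more fragments in every Yme1l-/- library than in any WT library. Such a separation, in CPM, held for 35.9% of the loci tested, and Yme1l-/- replicates 2 and 3 were the deeper libraries. Csf1r had 3, 2 and 5 in WT and 11, 20 and 11 in Yme1l-/- libraries, and Itgam had 4, 4 and 2 and then 9, 14 and 29. Lyz2 had 0, 2 and 0 and then 12, 8 and 11, and Fcer1g had 1, 3 and 3 and then 4, 10 and 13. Cd68, a lysosomal protein that fibroblasts also express, was the only one with enough counts to be tested and rose by 1.04 ± 0.14 on the log2 scale. The 5 epithelial markers summed to 33.0 to 34.9 CPM in WT and 0.294 to 0.657 CPM in Yme1l-/- libraries, and the WT sum was mostly Krt18 (31.9 CPM, with at most 3 fragments in a Yme1l-/- library). The 4 endothelial markers summed to 0.888 to 1.44 CPM in WT and 1.67 to 2.00 CPM in Yme1l-/- libraries. The part of these differences in the levels of the members was not tested. In bulk RNA, a change in the share of cells that express a gene and a change in the RNA per cell cannot be told apart.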

How the data were processed

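The authors deposited raw counts, as whole numbers of fragments per assembled locus, with no normalization. The authors mapped paired reads from stranded poly(A) libraries to GRCm38 with HISAT2 2.0.4, assembled transcripts with StringTie 1.3.3 and compared the genotypes with Cuffdiff 2.2.1. The second table deposited by the authors gives FPKM as 1 value per genotype, used only as levels. It also holds fold changes and p-values of the authors' comparison, which were not used. The handling of multi-mapping fragments is not given in the sources used here. Dhx58, Eif2ak2, Adar and Tlr3 share their assembled span with 6, 3, 1 and 1 other genes, so some fragments may be uncertain.

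The tests used edgeR 4.0.16 in R 4.3.3 (filterByExpr with a minimum count of 10, TMM scaling, robust glmQLFit and glmQLFTest, two-sided, no covariates) and limma 3.58.1. Benjamini-Hochberg adjustment ran over the 13867 loci tested, and an adjusted p under 0.05 was a call. No p was adjusted over a list. Fold changes are Yme1l-/- over WT, and each SE was derived from the fold change with its test statistic. Ratios to Mavs used a pseudocount of 0.5. Log2 CPM for distances had a prior count of 2, which understates differences of low loci. Positions and exon lengths are from GENCODE M21 (GRCm38), and 45 loci without a single position were left out by chromosome. Intervals and floors cover counting error only, since PCR copies were not identified.

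The members, lists and tests were chosen with earlier results of these data known. Beside the members and Yme1l1, genes were named as the 3 highest and 2 lowest calls of each list with at least 1 CPM in the higher genotype, as direct partners whatever their value, or as the nearest pattern. The marker lists were added, and Dhx58os, Mex3c, Rnf125, Setdb1 and Trim28 were named after their values were seen. Cultures of a genotype differed beyond sampling noise (lowest chi-square per degree of freedom 7.91). The fit was tested on simulated data. Alternatives were RLE and upper-quartile scaling, DESeq2 1.42.0, both other filters, the replicate number as a block, removal of chromosome medians, a pseudocount of 2 and each library left out.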

Additional observations from a re-analysis of the deposited data

How the results depend on the processing

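All 8 members kept their direction and their call under all 13 alternatives to the test, including RLE and upper-quartile scaling, DESeq2, a minimum of 10 counts in all samples, nearly no filter (a total of 1 count) and each culture left out in turn. Their highest adjusted p was 0.000828 (Ifih1). The log2 fold change of Dhx58 ranged from 2.94 to 3.39, that of Zbp1 from 2.77 to 3.29 and that of Mavs from 0.52 to 0.63. The loci called numbered between 8513 and 10051, against 9387. Deviations of same-numbered cultures correlated at 0.14, -0.09 and 0.05 (replicates 1 to 3). These values do not settle whether the numbers pair the samples, since replicate 1 was lowest for most members in both genotypes. The replicate block gave 9794 called loci and left all 8 members called. It lowered the SE of Ddx58 from 0.0825 to 0.0449, whereas that of Tlr3 went from 0.126 to 0.13. With chromosome medians removed, 2 PKR partners were called lower in place of 4. Of the RIG-I-like receptor partners, 7 were called higher and 6 lower, in place of 8 and 8. Among the named genes of the pathway lists, the sign turned for Dhx33 (-0.0121), Ddx1 (0.0441) and Ddx21 (-0.15, called lower). Calls were lost for Dhx33, Ddx1, Nck1, Eif2s1, Ticam1, Supv3l1 and Xrn1, and Adarb1 became called (-0.37). The same setting moved the log2 values of Trim25, Rnf135, Tarbp2, Mlkl, Map3k7, Zc3hav1, Ddx3x, Pnpt1, Skiv2l and Dicer1 by over 1.5 times, with their calls kept. Ddx21 was also not called without WT replicate 1, WT replicate 3 or Yme1l-/- replicate 2. The sign of Prkra turned under upper-quartile scaling (0.0375) and with single cultures left out (-0.0641 to 0.0400, positive without Yme1l-/- replicate 2). Leaving out single cultures moved the log2 difference of the Ifih1 to Mavs ratio between -0.0269 and 0.193. The cause of these changes was not tested. The interferon ligands, of which none exceeded 1 fragment, could not be tested, and the WT level of Zbp1 rests on 13, 24 and 13 fragments. The part of depth in these low counts was not tested.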
